A study of Mus musculus with 3 samples.

Results

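Valine tRNAs carry valine to the ribosome and read its codons through the anticodons CAC, AAC and TAC, each of which defines an isoacceptor. Cleavage in or near the anticodon loop leaves long and shorter fragments, which are abundant in the epididymis, the duct in which sperm mature. ALKBH3, the product of the gene missing in the mutant mice, takes methyl groups off adenines and cytosines of RNA, tRNA among them. The members were the genes whose names begin with tRNA-Val-CAC-, tRNA-Val-AAC- or tRNA-Val-TAC-, 23 of the 446 tRNA genes of the gene table. They comprised 12 tRNA-Val-CAC, 8 tRNA-Val-AAC and 3 tRNA-Val-TAC genes.

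Small RNA of 15 to 50 nt was recovered from a gel loaded with 100 μg of total RNA from mouse epididymis and sequenced. There were 2 libraries from Alkbh3-/- mice and 1 library from wild type mice, and no treatment was given. Library A stands for the first and library B for the second of the deposited Alkbh3-/- columns, whose names carry other numbers than the labels, so which labelled replicate each one is remains unknown. The wild type column is named B6WT, where B6 may be a strain label that the Alkbh3-/- names lack, so whether the groups share a strain is not known. The sample labels give no age, sex or number of animals, nor whether separate animals gave the 2 Alkbh3-/- libraries. The p-values therefore reflect the spread between these libraries alone, which may be technical. The deposited classes (rRNA, tRNA, snoRNA, miRNA and mRNA) summed to 15411457 and 21169908 reads in Alkbh3-/- libraries A and B and 15107055 reads in wild type, and RPM below are reads scaled to these sums. The tRNA class held 5623960 and 8063516 of these reads in libraries A and B and 6754440 in wild type. Its part was larger in wild type, so RPM of tRNA also depend on the mix of classes. The gene table held reads equal to 59.4% and 59.1% of the tRNA class in libraries A and B and 59.4% in wild type. The tables hold no value for Alkbh3 or for any protein-coding gene, so neither the genotype nor the cell types of the tissue were checked. Intact tRNA lies outside the excised range, so the reads describe fragments, and fewer fragments and fewer reads passing a modified base cannot be told apart.

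Of the 23 members, 21 had coordinates, and all 21 matched a tRNA of RefSeq on GRCm38.p6, the assembly of mm10. The other 2, tRNA-Val-CAC-8-1 and tRNA-Val-AAC-6-1, had 0 reads in every library, and 19 had at least 100 reads in each. In the GENCODE M21 annotation 16 lay between genes and 5 in introns of long noncoding RNAs on the opposite strand, and 0 overlapped an exon. The introns were those of 4930557F10Rik, which held tRNA-Val-CAC-1-1, tRNA-Val-CAC-3-1, tRNA-Val-AAC-2-1 and tRNA-Val-AAC-4-1, and of Gm11290, which held tRNA-Val-AAC-5-1. The 21 genes were spread over 8 chromosomes, with 10 on chromosome 13, of which 8 lay within chr13:23285401-23446214.

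The sequence of tRNA-Val-CAC-2-5, the valine gene with the most reads, is shown to mark which fragment lengths reach its anticodon. No other valine sequence was at hand, so whether the isoacceptors match before the anticodon was not tested. It is the only member inside a promoter window of the RefSeq tables (that of Gm46404), at chr13:23446142-23446214 on the minus strand of GRCm38.p6, listed there as n-TVcac9. The whole gene is given with the anticodon, bases 34 to 36, in capitals. The prefixes that follow end at the lengths of the main fragments, with their last base in capitals.
whole gene: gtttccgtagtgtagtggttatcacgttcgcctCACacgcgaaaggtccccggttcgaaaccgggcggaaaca
first 23 bases: gtttccgtagtgtagtggttatC
first 29 bases: gtttccgtagtgtagtggttatcacgttC
first 32 bases: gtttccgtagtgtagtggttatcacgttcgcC
first 34 bases: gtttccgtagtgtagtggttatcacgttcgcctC
A read of 33 nt or less that starts at the first base ends before the anticodon, while one of 34 nt reaches its first base. The tables do not state where reads start, so these prefixes illustrate reads from the first base only.

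The 3 isoacceptors differed widely in level and all had fewer RPM in both Alkbh3-/- libraries than in wild type, but none of the differences passed the test. Together they held 2.36% and 3.03% of the tRNA gene reads in Alkbh3-/- libraries A and B and 2.93% in wild type. By this share tRNA-Val-CAC had 1.65% and 2.14% in Alkbh3-/- libraries, against 2.09% in wild type. The share of tRNA-Val-AAC was 0.655% and 0.837%, against 0.759% in wild type, so wild type lay between the Alkbh3-/- libraries for both. That of tRNA-Val-TAC was 0.0461% and 0.0567%, against 0.0759% in wild type. tRNA-Val-CAC, which reads the valine codon ending in G, had 3586 and 4812 RPM in Alkbh3-/- libraries A and B, against 5565 RPM in wild type. It ranked 6th and 5th among isoacceptors in the Alkbh3-/- libraries and 5th in wild type. tRNA-Val-AAC, whose first anticodon base is an adenine that is deaminated to inosine, had 1420 and 1885 RPM in Alkbh3-/- libraries, against 2017 RPM in wild type. tRNA-Val-TAC, the least abundant of the 3, had 99.99 and 127.8 RPM in Alkbh3-/- libraries, against 201.8 RPM in wild type. In RPM library A was the lowest for each isoacceptor and wild type the highest. The order of levels, tRNA-Val-CAC above tRNA-Val-AAC above tRNA-Val-TAC, was the same in all 3 libraries.

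**Figure D1:**
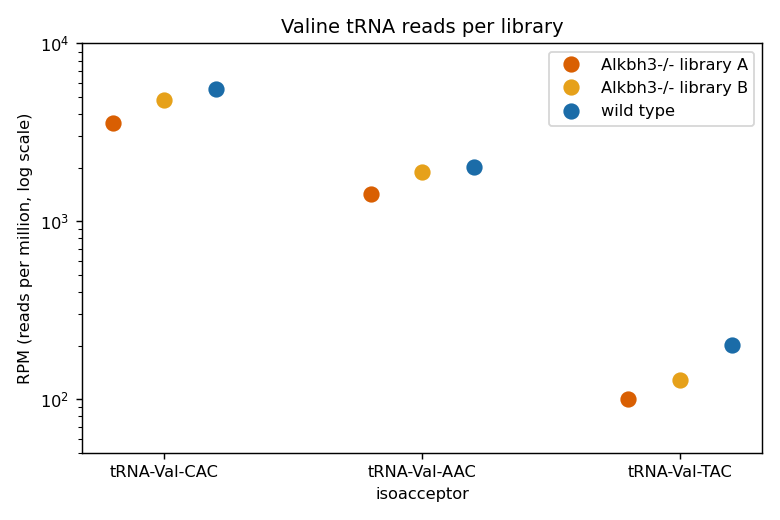
RPM (log scale) of each valine isoacceptor in Alkbh3-/- libraries A and B and wild type, 1 point per library. tRNA-Val-CAC lies highest and tRNA-Val-TAC lowest, at 99.99 and 127.8 RPM in Alkbh3-/- libraries and 201.8 RPM in wild type.

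Counts per isoacceptor were compared with edgeR's quasi-likelihood test with Benjamini-Hochberg adjustment over 46 isoacceptors, of which 11 (23.9%; 3 higher and 8 lower) passed an adjusted p of 0.05 and 0 of the 3 valine ones did. At an unadjusted p under 0.05 the valine count was also 0 in this fit and with DESeq2. It was 1 with TMM scaling and 1 in first-class reads of 34 nt or more. After adjustment no edgeR or DESeq2 setting tried gave a valine call. tRNA-Val-CAC had a log2 fold change of -0.37 with an SE of 0.49 and an edgeR adjusted p of 0.669. tRNA-Val-AAC had -0.26 (SE 0.67, edgeR adjusted p = 0.790), and its sign turned with the scaling, to 0.026 with DESeq2 and 0.0058 with library size taken from the tRNA table. tRNA-Val-TAC had -0.80 (SE 0.41, edgeR adjusted p = 0.169), and stayed at or below -0.51 in the settings tried. Lower values in both Alkbh3-/- libraries were found for 24 of the 46 isoacceptors (52.2%), and the median log2 fold change over all of them was -0.26. With 2 libraries against 1 no exact permutation p can fall below 0.333, and the model has 1 residual degree of freedom. The prior degrees of freedom were infinite in the reported fits of isoacceptors, isodecoders and fragments. The p-values of each fit therefore rest on spread pooled over its members, not on the spread of each member by itself.

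Ratios between isoacceptors within a library do not depend on scaling. There were 35.9 and 37.7 reads of tRNA-Val-CAC per read of tRNA-Val-TAC in Alkbh3-/- libraries A and B, against 27.6 in wild type. Reads of tRNA-Val-AAC per read of tRNA-Val-TAC were 14.2 and 14.8 in Alkbh3-/- libraries, against 10.0 in wild type. Both ratios lay outside the gap between the Alkbh3-/- libraries, with tRNA-Val-TAC the scarcer partner there. The ratio of tRNA-Val-CAC to tRNA-Val-AAC was 2.53 and 2.55 in Alkbh3-/- libraries, against 2.76 in wild type. In first-class reads of 34 nt or more, tRNA-Val-CAC per tRNA-Val-TAC was 13.8 and 12.3 in Alkbh3-/- libraries, against 12.9 in wild type, so wild type lay between them. In the same reads tRNA-Val-AAC per tRNA-Val-TAC was 3.18 and 2.65 in Alkbh3-/- libraries, against 2.49 in wild type. tRNA-Val-CAC per tRNA-Val-AAC was 4.33 and 4.63 in Alkbh3-/- libraries, against 5.17 in wild type. Each lay on the same side as in the gene-table reads. The reads of 34 nt or more are from the fragment sheets, so the size of their ratios cannot be set beside that of the gene-table ratios. They also leave out the second class, which held 49.3% and 43.1% of tRNA-Val-TAC fragment reads in Alkbh3-/- libraries and 50.6% in wild type. For tRNA-Val-CAC it held 0.0921% and 0.0925%, against 0.111%.

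By the pair of log2 ratios over wild type, the isoacceptors nearest to tRNA-Val-CAC among 43 were SeC-TCA, Gly-ACC and Arg-ACG. The nearest to tRNA-Val-AAC were Arg-ACG, Met-CAT and tRNA-Val-CAC, and to tRNA-Val-TAC Trp-CCA, Gln-CTG and Gln-TTG. The likeness rests on 2 values that share the wild type library. Whether tRNA-Val-CAC and tRNA-Val-AAC also shared reads was not tested. Of lists that hold a valine isoacceptor, the substrates of the tRNA methyltransferase DNMT2 (Asp-GTC, Gly-GCC and Val-AAC) had 1 of 3 members lower by the test, Gly-GCC, and a median log2 fold change of -0.26, against 11 of 46 called (3 higher and 8 lower) and a median of -0.26 over all isoacceptors. Of the 8 isoacceptors whose anticodon starts with A, 1 was higher and 2 were lower, with a median of -0.05, beside the same 11 of 46 (23.9%) and -0.26 over all. Of 7 main parents of long fragments in the male tract, 1 was higher and 1 was lower, with a median of -0.37, the value of tRNA-Val-CAC, beside the same 23.9% called over all.

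An isodecoder is a set of copies with one mature sequence, taken here from the gene names without comparing sequences. The 10 reads needed for the test were reached by 11 valine isodecoders. None of them passed with edgeR or DESeq2, against 14 of 191 isodecoders (7.33%) in all with edgeR, and at an unadjusted p under 0.05 the valine count was 0 in this edgeR fit and 1 with DESeq2, with TMM scaling and with no count filter. tRNA-Val-CAC-2, with 5 copies, held 95.1% and 95.4% of the tRNA-Val-CAC reads in Alkbh3-/- libraries and 96.1% in wild type. It had 3410 and 4590 RPM in Alkbh3-/- libraries, against 5348 RPM in wild type, a log2 fold change of -0.42 with an SE of 0.26 and an edgeR adjusted p of 0.449. tRNA-Val-AAC-1, with 2 copies, held 73.8% and 74.9% of the tRNA-Val-AAC reads in Alkbh3-/- libraries and 78.4% in wild type, with a log2 fold change of -0.36 with an SE of 0.34 and an edgeR adjusted p of 0.711. tRNA-Val-TAC-1, with 3 copies, held every tRNA-Val-TAC read.

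The minor isodecoders did not move as one. Both Alkbh3-/- libraries lay below wild type for 6 of the 11 tested isodecoders, above it for 2 and on either side of it for 3, against 92 of 191 isodecoders (48.2%) below it in all. tRNA-Val-AAC-2 had 132.7 and 166.0 RPM in Alkbh3-/- libraries, against 131.1 RPM in wild type, and a log2 fold change of 0.19 (SE 0.45). tRNA-Val-AAC-3 had 68.8 and 84.8 RPM in Alkbh3-/- libraries, against 68.1 RPM in wild type. These were the 2 that lay above wild type, in library A by less than 0.02 on the log2 scale. tRNA-Val-AAC-5 had 135.3 and 181.4 RPM in Alkbh3-/- libraries, against 199.6 RPM in wild type. The log2 fold changes were -0.15 for tRNA-Val-CAC-1, 0.07 for tRNA-Val-CAC-3 and -0.56 for tRNA-Val-CAC-6, each with an SE between 0.39 and 0.45.

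**Figure D2:**
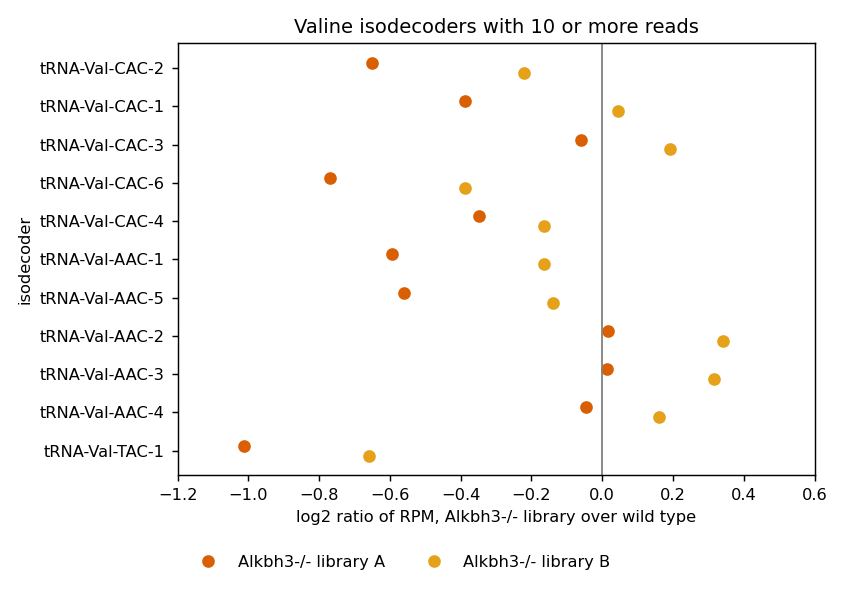
Log2 ratio of RPM in each Alkbh3-/- library over wild type for the 11 tested valine isodecoders, with A above B. tRNA-Val-AAC-2 and tRNA-Val-AAC-3 lie right of zero in both libraries, and tRNA-Val-TAC-1 lies farthest left.

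How the counting treated reads that match several copies is not given, so values of single copies are uncertain. tRNA-Val-CAC-2-5 had 18563 and 33841 reads in Alkbh3-/- libraries and 29086 reads in wild type, while tRNA-Val-CAC-2-1, on chromosome 1, had 8630 and 15969 reads in Alkbh3-/- libraries and 13036 reads in wild type. tRNA-Val-CAC-2-2, on chromosome 3, had 8562 and 15967 reads in Alkbh3-/- libraries and 12985 reads in wild type. tRNA-Val-AAC-1-1, also on chromosome 3, had 8149 and 14971 reads in Alkbh3-/- libraries and 12117 reads in wild type, close to those of tRNA-Val-CAC-2-1 and tRNA-Val-CAC-2-2 although the anticodon differs. The 3 copies of tRNA-Val-TAC-1, on chromosomes 19 and X, had 776, 377 and 388 reads in library A, 1396, 651 and 658 reads in library B and 1569, 744 and 735 reads in wild type. These counts are those of the gene table. The fragment sheets gave the same copies 522, 532 and 568 reads in library A and 971, 926 and 966 in library B. In wild type they gave 1124, 1040 and 1045, so the lead of the first copy was small or absent there.

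By length, 4 of the 5 copies of tRNA-Val-CAC-2 and both copies of tRNA-Val-AAC-1 were level up to 33 nt and parted at 34 nt. These 6 copies were grouped after their values were seen. Counts by length are those of the fragment sheets, not of the gene table. There tRNA-Val-CAC-2-5 had 29366 and 53548 reads over all lengths in Alkbh3-/- libraries and 45577 in wild type. At 32 nt the 4 copies tRNA-Val-CAC-2-1 to tRNA-Val-CAC-2-4 had 6448 to 6707 reads each in library A, 11598 to 11872 in library B and 9637 to 10073 in wild type. The 2 copies of tRNA-Val-AAC-1 had 6455 to 6706, 11587 to 11659 and 9600 to 10020 reads. The fifth copy, tRNA-Val-CAC-2-5, was not level with them, with 16852 and 29112 reads at 32 nt in Alkbh3-/- libraries and 25630 in wild type, or 2.56, 2.49 and 2.60 times the mean of these 6 copies. Mean reads per copy of tRNA-Val-CAC-2-1 to tRNA-Val-CAC-2-4 over those of tRNA-Val-AAC-1 were 0.992 and 0.996 at 33 nt in Alkbh3-/- libraries and 1.03 in wild type. At 34 nt the ratio was 2.30 and 2.38 in Alkbh3-/- libraries and 2.51 in wild type. In tRNA-Val-CAC-2-5 a read of that length from the first base reaches the anticodon. Whether reads were shared between these copies was not tested, so tRNA-Val-CAC and tRNA-Val-AAC values at 33 nt or less cannot be taken as independent measurements.

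**Figure D3:**
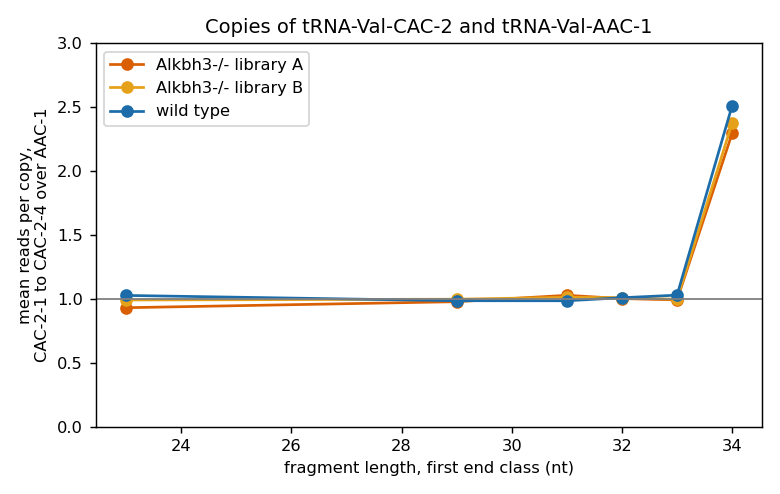
Mean reads per copy of tRNA-Val-CAC-2-1 to tRNA-Val-CAC-2-4 over mean reads per copy of tRNA-Val-AAC-1, by length of first-class fragments, for Alkbh3-/- libraries A and B and wild type. The ratio lies near 1 up to 33 nt and at 2.30 and 2.38 in Alkbh3-/- libraries and 2.51 in wild type at 34 nt. The copies were grouped after their values were seen.

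A smaller set of copies was also level at 32 nt, tRNA-Val-CAC-3-1, tRNA-Val-AAC-2-1, tRNA-Val-AAC-2-2 and tRNA-Val-AAC-3-1. Both the larger set above and this smaller one were drawn up after their values were seen, and they have no test. The level counts within each set at 32 nt follow from that choice. Each copy of the smaller set had 987 to 1116 reads in library A, 1655 to 1895 in library B and 916 to 1023 in wild type. Per read of a copy in the larger set, a copy of the smaller set had 0.163 and 0.152 reads in Alkbh3-/- libraries, against 0.0988 in wild type. This ratio is taken within a library, and both Alkbh3-/- values were above wild type.

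The fragment sheets give reads by length in 2 end classes that the tables do not name, called the first and second class here. tRNA-Val-CAC and tRNA-Val-AAC had nearly the same length profile in wild type, with an overlap of 93.8%, the largest among the 23 isoacceptors each was compared with, followed by Cys-GCA and Lys-CTT for both. Their main fragment was 32 nt in the first class. This fragment held 50.3% and 47.9% of tRNA-Val-CAC fragment reads in Alkbh3-/- libraries and 49.9% in wild type, so wild type lay between the Alkbh3-/- libraries. For tRNA-Val-AAC it held 48.8% and 46.6% in Alkbh3-/- libraries and 48.9% in wild type. The second class made up 0.0921% and 0.0925% of tRNA-Val-CAC fragment reads in Alkbh3-/- libraries and 0.111% in wild type.

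tRNA-Val-TAC had another length profile. Its first-class peak was at 34 nt, with 26.4% and 29.4% of its fragment reads in Alkbh3-/- libraries and 24.7% in wild type. A second-class peak at 38 nt held 33.2% and 28.6% in Alkbh3-/- libraries and 36.02% in wild type. The whole second class made up 49.3% and 43.1% in Alkbh3-/- libraries and 50.6% in wild type. The nearest wild type profile was that of Asp-GTC, with an overlap of 55.1%, followed by Glu-TTC and Lys-TTT.

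**Figure D4:**
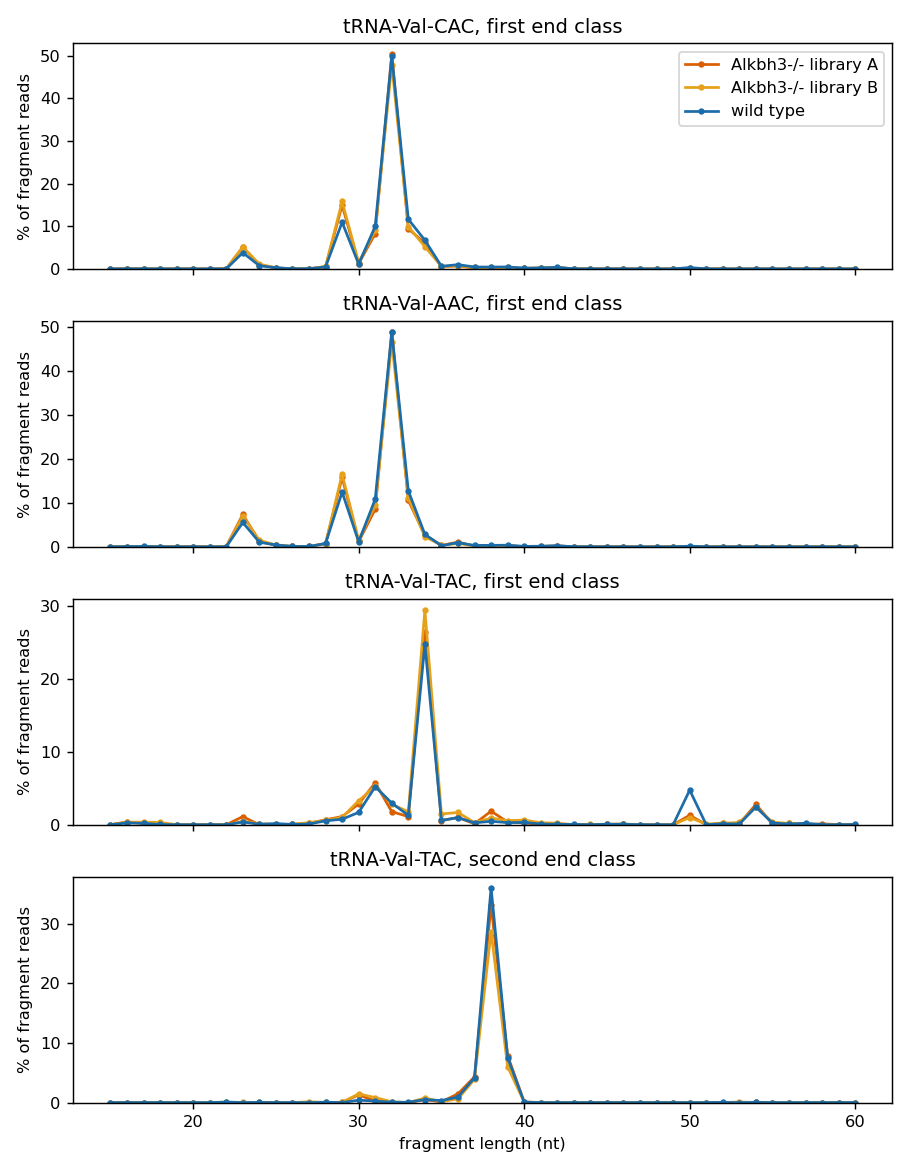
Percent of each isoacceptor's fragment reads at each length from 15 to 60 nt, for Alkbh3-/- libraries A and B and wild type, 1 line per library. tRNA-Val-CAC and tRNA-Val-AAC peak at 32 nt, tRNA-Val-TAC at 34 nt in the first class and 38 nt in the second, and its wild type line alone rises to 4.74% at 50 nt.

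Fragments under 30 nt took a larger share of each valine isoacceptor in both Alkbh3-/- libraries. The share was 21.9% and 23.1% for tRNA-Val-CAC in Alkbh3-/- libraries, against 16.4% in wild type. It was 25.7% and 26.6% for tRNA-Val-AAC in Alkbh3-/- libraries, against 20.5% in wild type, and 3.76% and 3.95% for tRNA-Val-TAC, against 2.65% in wild type. A larger share in both Alkbh3-/- libraries was found for 11 of 24 isoacceptors (45.8%), the 3 valine ones included. The 95% intervals (Clopper-Pearson, exact, for counting error alone) ran from 21.6% to 22.1% and from 22.9% to 23.29% for tRNA-Val-CAC in Alkbh3-/- libraries and from 16.2% to 16.6% in wild type. For tRNA-Val-TAC, with 61 and 113 such reads in Alkbh3-/- libraries and 85 in wild type, the intervals of library A (2.89% to 4.80%) and library B (3.26% to 4.73%) both overlapped that of wild type (2.12% to 3.26%).

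The gain lay mostly at 23 and 29 nt. Fragments of 29 nt per fragment of 32 nt numbered 0.297 and 0.330 for tRNA-Val-CAC in Alkbh3-/- libraries, against 0.219 in wild type. For tRNA-Val-AAC they numbered 0.323 and 0.354 in Alkbh3-/- libraries, against 0.255 in wild type. Those of 23 nt per fragment of 32 nt were 0.101 and 0.107 for tRNA-Val-CAC in Alkbh3-/- libraries, against 0.0762 in wild type. In RPM the 29 nt fragment of tRNA-Val-CAC had 873.3 and 1242 in Alkbh3-/- libraries, against 982.4 in wild type, on either side of it, so its level did not separate the groups.

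Fragments of 30 to 33 nt made up 69.3% and 68.4% of tRNA-Val-CAC in Alkbh3-/- libraries, against 72.7% in wild type, and 69.2% and 68.8% of tRNA-Val-AAC, against 73.6% in wild type. For tRNA-Val-TAC the share was 13.01% and 15.6% in Alkbh3-/- libraries, against 11.9% in wild type, the other direction. In its first end class alone the share was 22.6% and 23.1% in Alkbh3-/- libraries, against 22.5% in wild type, a difference of 0.31 points in place of 2.39. A lower share in both Alkbh3-/- libraries was found for 10 of 24 isoacceptors (41.7%). With 29 to 34 nt in place of 30 to 33 nt the difference for tRNA-Val-CAC shrank to -0.48 percentage points.

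Of the 67 valine fragments that every library held with 10 or more reads, 46 had fewer RPM in both Alkbh3-/- libraries, 5 had more and 16 lay on either side of wild type, against 240 of 572 fragments (42%) lower in all. Among first-class valine fragments of 31 nt or more, 31 of 35 were lower in both, against 136 of 291 (46.7%) over all isoacceptors. Among those of 30 nt or less, 9 of 23 were lower in both, against 41 of 151 (27.2%). The counts over all isoacceptors include the valine fragments. This cut differs from the ranges used for the shares, where 30 nt belongs with the longer fragments. The first-class 30 nt fragment of each valine isoacceptor lay on either side of wild type. Since tRNA-Val-CAC and tRNA-Val-AAC may share reads up to 33 nt, the valine fragments cannot be taken as separate observations. The counts also rest on scaling to the class sums. With fragment-sheet library sizes the median log2 fold change of the valine fragments was -0.25 in place of -0.53. Over all fragments it was 0.25 in place of -0.03.

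With edgeR's quasi-likelihood test over the 572 fragments, 2 valine fragments fell, against 6 of 572 (1.05%) lower in all, and both were first-class fragments of 50 nt. That of tRNA-Val-TAC had 1.36 and 1.32 RPM in Alkbh3-/- libraries (21 and 28 reads), against 10.1 RPM in wild type (152 reads). Its log2 fold change was -2.90 (SE 0.67, edgeR adjusted p = 0.00185), and it passed in all 7 settings tried. The p-values here rest on spread pooled over fragments, not on the spread of this fragment by itself. The 50 nt fragment of tRNA-Val-AAC is given below. The 50 nt fragment of tRNA-Val-CAC had 6.42 and 9.35 RPM in Alkbh3-/- libraries, against 28.9 RPM in wild type. Its log2 fold change was -1.85 with an SE of 0.56 and an edgeR adjusted p of 0.0415. It passed in 3 of 7 settings and was lost in edgeR's older quasi-likelihood method (adjusted p = 0.121), which was run before the method reported here was kept. Over the settings its adjusted p ran between 0.000199 and 0.121. That of tRNA-Val-AAC had 0.973 and 1.98 RPM in Alkbh3-/- libraries, against 4.77 RPM in wild type, and -1.62 (SE 0.72, edgeR adjusted p = 0.367) did not pass.

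**Figure D5:**
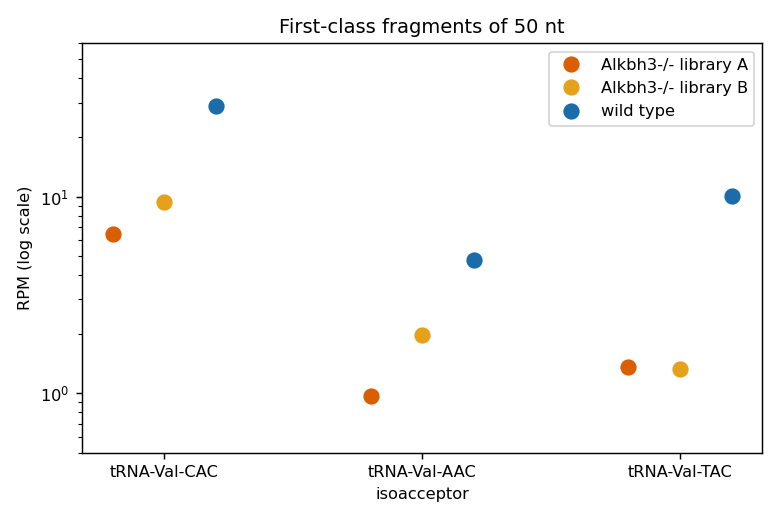
RPM (log scale) of first-class fragments of 50 nt for each valine isoacceptor in Alkbh3-/- libraries A and B and wild type, 1 point per library. Both Alkbh3-/- points lie below wild type for each, at 1.36 and 1.32 against 10.1 RPM for tRNA-Val-TAC.

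As shares, fragments of exactly 50 nt made up 1.29% and 0.978% of tRNA-Val-TAC in Alkbh3-/- libraries, against 4.74% in wild type, 0.110% and 0.119% of tRNA-Val-CAC, against 0.321% in wild type, and 0.0412% and 0.0633% of tRNA-Val-AAC, against 0.144% in wild type. The share was lower in both Alkbh3-/- libraries for 11 of 24 isoacceptors (45.8%) and higher in both for 7. The direction was not general, since in Gly-GCC it was 2.59% and 2.34% in Alkbh3-/- libraries, against 0.555% in wild type. A length of 50 nt is also the upper edge of the excised range, and its part in these values was not tested. Longer fragments were present too. Those over 50 nt made up 3.64% and 3.74% of tRNA-Val-TAC in Alkbh3-/- libraries, against 3.24% in wild type. For tRNA-Val-CAC they made up 0.0344% and 0.0553%, against 0.0361%, and for tRNA-Val-AAC 0.0275% and 0.0166%, against 0.00797%.

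The other main fragments did not pass. The 32 nt fragment of tRNA-Val-CAC had 2943 and 3765 RPM in Alkbh3-/- libraries, against 4477 RPM in wild type (log2 fold change -0.42, SE 0.32, edgeR adjusted p = 0.725). The 32 nt fragment of tRNA-Val-AAC had 1152 and 1463 RPM in Alkbh3-/- libraries, against 1623 RPM in wild type. The 33 and 31 nt fragments had log2 fold changes of -0.65 and -0.58 for tRNA-Val-CAC and -0.50 and -0.53 for tRNA-Val-AAC. For tRNA-Val-TAC the second-class fragment of 38 nt had 34.9 and 38.7 RPM in Alkbh3-/- libraries, against 76.5 RPM in wild type (-1.05, SE 0.55, edgeR adjusted p = 0.503). Its first-class fragment of 34 nt had 27.8 and 39.8 RPM in Alkbh3-/- libraries, against 52.5 RPM in wild type (-0.63, SE 0.55). The second-class 39 nt and first-class 31 nt fragments of tRNA-Val-TAC had log2 fold changes of -0.96 and -0.74.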

How the data were processed

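Small RNA was sequenced from mouse epididymis, 2 Alkbh3-/- libraries and 1 wild type library. The authors deposited raw read counts of 5 RNA classes and of 446 tRNA genes, and 1 sheet per library with reads by fragment length in 2 unnamed end classes; other sheet columns, 6 in all, were not used. Per the submitters' processing notes, cutadapt and mm10 were used. Aligner, counting tool and handling of reads with several matches: not given in the sources used here. Columns were assigned to genotypes by name.

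Counts were summed per isoacceptor and isodecoder (10 or more reads over the libraries) and per fragment (10 or more in each library), and tested with edgeR 4.0.16 (glmQLFit without the legacy method, glmQLFTest) in R 4.3.3, with class sums as library sizes and Benjamini-Hochberg adjustment. edgeR's older method (estimateDisp, legacy quasi-likelihood) was run first, and the newer one was kept, with the calls of both seen, because it repeats an earlier processing of these data. The single wild type library is taken to vary as the 2 others do, and spread was pooled over all members of a fit (infinite prior degrees of freedom). DESeq2 1.42.0 was an alternative. The tests were tried on simulated data. SE is |log2 fold change| / √F. Named were, per anticodon, the 4 isodecoders and 4 fragments with the highest mean RPM and any that passed, the 3 highest copies, and the 3 most alike isoacceptors. Members and lists were chosen with earlier results of these data known.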

Additional observations from a re-analysis of the deposited data

How the results depend on the processing

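The isoacceptor and isodecoder calls stood at 0 valine ones in every setting run. The tRNA-Val-AAC fold change turned to 0.0257 (log2) with DESeq2 and 0.00585 with tRNA-table library sizes. tRNA-Val-CAC-1 turned to 0.0678 with DESeq2, 0.109 with tRNA-table library sizes and 0.0524 with TMM, and tRNA-Val-CAC-4 to 0.0133 with tRNA-table library sizes. The count of valine fragments that passed, 2 in the reported fit, was 5 with TMM, which added tRNA-Val-AAC at 50 nt and the second-class 38 nt fragments of tRNA-Val-CAC and tRNA-Val-TAC, and 1 with fragment-sheet library sizes, with 10 reads over the libraries or with end classes summed.

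The older edgeR method also called 2, but they were tRNA-Val-TAC at 50 nt and tRNA-Val-CAC at 38 nt in the second class (adjusted p = 0.0491, against 0.285 in the reported fit and 0.0157 with TMM). The latter had only 10 and 19 reads in Alkbh3-/- libraries and 49 in wild type, with library A at the least count the filter allows. tRNA-Val-CAC at 50 nt had adjusted p of 0.0826 with fragment-sheet library sizes, 0.0948 with 10 reads over the libraries and 0.0711 with end classes summed. Over all isoacceptors 11 passed, and 5 did with the older method, 3 with DESeq2 (median of all isoacceptors 0.02, against -0.26 in the reported fit) and 2 in first-class reads of 34 nt or more. Over all isodecoders 14 passed, and 3 did with DESeq2, 2 with tRNA-table library sizes and 0 with TMM (32 at an unadjusted p under 0.05). Over all fragments 13 passed, of which 6 were lower, and 26 did with DESeq2 (6 lower) and 48 with TMM (21 lower). The older method was run before the reported one, which was kept with the calls of both seen. The reads of 34 nt or more and a sum without tRNA-Val-CAC-2-5 were added after seeing the data. Both sets of copies compared at 32 nt were also drawn up after their values were seen. The causes were not tested.

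With 29 to 34 nt, the difference in the share of 30 to 33 nt was -0.484 points for tRNA-Val-CAC, -1.29 for tRNA-Val-AAC and 6.07 for tRNA-Val-TAC, against -3.81, -4.64 and 2.39. In the first end class it was 0.310 for tRNA-Val-TAC. With library A or B left out, the log2 ratio of tRNA-Val-CAC ran from -0.63 to -0.21, of tRNA-Val-AAC from -0.51 to -0.10 and of tRNA-Val-TAC from -1.01 to -0.66. No paired analysis was possible because there is 1 wild type library, whose label carries no replicate number. Reads that may be shared between copies limit what single copies and lengths up to 33 nt can show.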
